A study of Mus musculus with 24 samples.

Results

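Lysosome genes were followed in mouse liver: genes for the acid hydrolases of the lysosome, its membrane proteins and channels, the proton pump that acidifies it, progranulin, and 3 transcription factors that act on these genes. They were named as a list of 43 symbols, which stand for 42 genes because Limp2 is another name of Scarb2, and each gene was read from its probe set with the highest mean over all arrays. Of the 42 genes, 41 were measured among 18820 named genes. Ctsb, the gene for cathepsin B, lay only on probe sets shared with another gene and was not used, and Mitf alone had more than 1 probe set.

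The livers came from 24 male C57BL/6 mice aged 9 to 12 weeks and kept on chow, with 6 mice and 6 whole-transcript arrays in each of 4 groups. Wild-type and FXR-/- mice received either obeticholic acid (OCA, INT-747) at 10 mg/kg/day in 1% methyl cellulose, or the 1% methyl cellulose alone, by daily gavage for 7 days. FXR is the nuclear receptor for bile acids and OCA is a semi-synthetic bile acid that activates it. The sources used here do not give how the FXR-/- allele was made, and whole liver RNA was measured, so every value is a mixture of hepatocytes and the other liver cells.

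The lysosome is the acid compartment in which proteins, glycans and lipids delivered by endocytosis, phagocytosis and autophagy are broken down. A proton pump of many subunits, the V-ATPase, keeps it acid, and glycosylated membrane proteins such as LAMP1 and LAMP2 line its inner face. Many lysosome genes carry an E-box, CACGTG, near their start, often within the longer palindrome TCACGTGA, which is bound by TFEB, TFE3 and MITF. In liver both hepatocytes and Kupffer cells, the resident macrophages, are rich in lysosomes.

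Promoter windows from RefSeq (GRCm38.p6, 250 bases before to 50 bases after a transcript start) were found for 35 of the 41 genes, in 42 windows. Both palindromes were searched, so either strand gives the same match, and each longer match holds a shorter one. The longer palindrome TCACGTGA stood in at least 1 window of 6 of the 35 genes (17.1%), against 224 of 14749 named genes with a window (1.52%). CACGTG stood in 12 of the 35 genes (34.3%), against 9.57% of all named genes with a window. By window, the shares were 14.3% of the 42 against 1.32% for TCACGTGA and 28.6% against 8.31% for CACGTG. The half-site of FXR and of many other nuclear receptors, AGGTCA, searched on both strands, stood in 10 of the 35 genes (28.6%) against 16.4%. A match is a description of the letters in a window and no evidence of binding.

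The windows of 5 genes are shown because they hold more than 1 E-box each, among genes that responded to the genotype in different degrees. Ctsd (chr7:142387808-142388077, minus strand), Gla (chrX:134600986-134601255, minus strand), Ctsa (chr2:164833523-164833792, plus strand), Lamp1 (chr8:13158911-13159180, plus strand) and Mcoln1 (chr8:3500269-3500538, plus strand) are printed 5′ to 3′ over 270 bases that end 20 bases after the start. Capitals mark CACGTG, or TCACGTGA where the longer palindrome is present. A further window of Ctsa, at another start, held neither.
Ctsd: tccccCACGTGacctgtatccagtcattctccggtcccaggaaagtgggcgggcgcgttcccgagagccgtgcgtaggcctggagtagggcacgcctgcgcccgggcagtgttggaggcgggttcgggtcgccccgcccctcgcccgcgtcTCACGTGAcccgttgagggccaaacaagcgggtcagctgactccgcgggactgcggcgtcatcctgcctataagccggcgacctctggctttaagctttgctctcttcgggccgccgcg
Gla: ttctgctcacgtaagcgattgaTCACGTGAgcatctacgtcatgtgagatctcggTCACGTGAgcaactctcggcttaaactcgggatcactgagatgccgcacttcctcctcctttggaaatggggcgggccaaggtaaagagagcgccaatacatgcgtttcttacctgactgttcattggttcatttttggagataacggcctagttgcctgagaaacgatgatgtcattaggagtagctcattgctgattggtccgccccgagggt
Ctsa: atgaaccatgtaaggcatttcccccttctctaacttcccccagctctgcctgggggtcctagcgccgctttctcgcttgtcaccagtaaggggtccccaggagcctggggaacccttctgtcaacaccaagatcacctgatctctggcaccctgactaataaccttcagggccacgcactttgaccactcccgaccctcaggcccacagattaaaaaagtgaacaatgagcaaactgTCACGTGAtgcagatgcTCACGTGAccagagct
Lamp1: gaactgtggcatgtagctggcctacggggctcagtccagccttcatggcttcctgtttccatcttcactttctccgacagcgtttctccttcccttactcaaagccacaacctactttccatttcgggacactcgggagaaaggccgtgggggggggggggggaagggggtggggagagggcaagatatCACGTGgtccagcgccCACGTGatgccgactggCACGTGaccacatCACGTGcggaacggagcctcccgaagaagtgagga
Mcoln1: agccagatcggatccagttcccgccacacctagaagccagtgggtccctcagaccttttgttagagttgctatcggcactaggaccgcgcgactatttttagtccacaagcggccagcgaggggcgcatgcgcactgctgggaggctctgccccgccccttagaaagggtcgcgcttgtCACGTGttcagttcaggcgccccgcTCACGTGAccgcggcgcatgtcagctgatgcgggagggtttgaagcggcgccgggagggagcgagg

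In Ctsd the E-boxes were centred 242 and 95 bases before the start, and in Gla 224 and 191 bases before it. Ctsa had 1 at 9 bases before the start and 1 just behind it. The 4 of Lamp1 lay between 58 and 12 bases before the start, and the 2 of Mcoln1 at 68 and 42. The other genes with a CACGTG were Atp6v0d1, Glb1, Naglu, Gaa, Ctsl, Atp6v1a and Ctsf, each with 1.

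**Figure D1:**
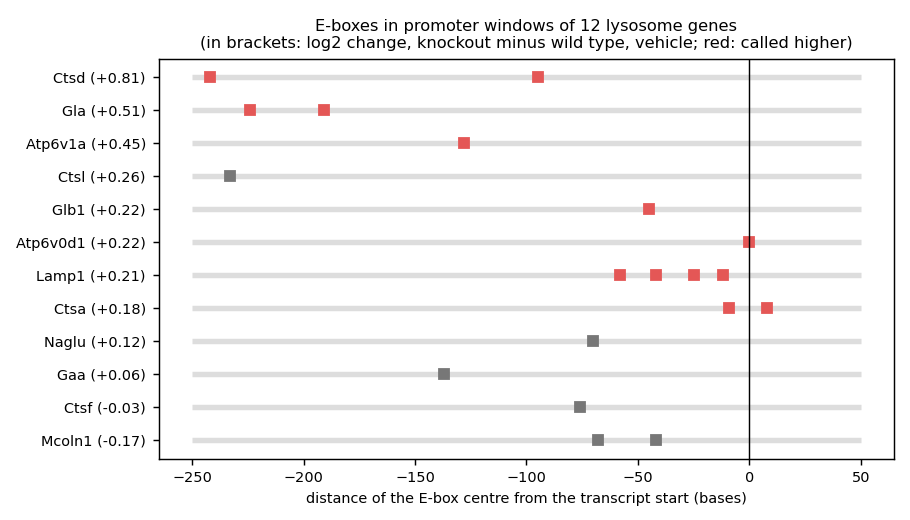
Position of each CACGTG in the promoter windows of 12 lysosome genes, with the distance of its centre from the transcript start in bases on the horizontal axis and 1 gene per row, ordered by its log2 change in FXR knockout against wild type under vehicle (in brackets). Red squares mark genes higher in knockout in the test described below for that comparison, grey squares the others, and both kinds are found along the window.

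Each value below is the deposited log2 expression value of 1 probe set, in which a difference of 1 is a factor of 2. Levels of different genes come from different probe sets and are not set against each other. Changes are differences of group means with their standard errors (SE) from limma over all 24 arrays, and a gene was called where the p-value adjusted by Benjamini-Hochberg over 18820 genes was below 0.05. Each array is 1 mouse, so n = 6 in every group.

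Some features of the whole set of arrays touch these results. Nr1h4, the gene of FXR, read 9.85 to 10.30 in wild-type and 9.80 to 10.13 in knockout arrays, and neither difference passed the test (limma adjusted p = 0.0935 under vehicle and 0.146 under OCA). Where its probes lie relative to the deleted part is not given, so this gene does not check the labels. The hepatocyte marker list had a mean of 12.53 to 12.66 in wild-type and 12.36 to 12.47 in knockout arrays, so the labelled tissue was high in these markers and the genotypes did not overlap. The median over named genes was 5.14 to 5.23 in the wild-type arrays and 5.32 to 5.38 in the knockout arrays. Over all 35556 probe sets the array medians of both genotypes lay between 4.57 and 4.65. Wild-type vehicle replicate 6 stood apart from its group, with 532 genes over 2-fold from the other 5 mice, none of them a lysosome gene. Array names carry a number, 5, 7 or 9, whose meaning the sources used here do not give. All wild-type OCA arrays carry 5, all knockout OCA arrays carry 9, and the vehicle arrays of both genotypes are divided between 7 and 1 of the other numbers.

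On the deposited scale most lysosome genes were more abundant in livers without FXR, and fewer were after each array was centred, as given below. Under vehicle 24 of the 41 genes were higher in knockout than in wild-type liver and 1, Scarb2, was lower. This is 58.5% higher against 15.4% of all genes, and 2.44% lower against 12.1% of all genes. The median change was 0.22 for the lysosome genes and −0.03 for all genes, and the changes ran from −0.24 to 3.00. In 19 of the 41 genes every knockout array lay above every wild-type array, against 9.40% of all genes, and in none of the 41 did every knockout array lie below, against 5.67%. Under OCA 21 genes were higher (51.2%, against 17.4% of all genes) and Scarb2, Ctsh and Tfeb were lower (7.32%, against 13.3%), with a median of 0.22 against −0.02 for all genes. The groups did not overlap upwards in 16 genes, against 10.9% of all genes, and downwards in 2, Scarb2 and Tfeb, against 7.48%.

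The vehicle and OCA comparisons of genotype share no array. In 20 of the 41 genes (48.8%) the call was made in both and in the same direction, against 20.9% of all genes, and none was called in opposite directions. The sign was the same in 40 of 41 genes, against 77.6% of all genes, and the exception was Naglu, an N-acetylglucosaminidase of heparan sulfate breakdown, at 0.12 under vehicle and −0.06 under OCA, neither called.

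These counts depend on how the arrays are put on a common scale. After each array was centred on its median over named genes, the median change of all genes moved to −0.20 under vehicle and −0.21 under OCA. The lysosome genes then divided into 16 higher and 8 lower under vehicle, against 9.44% and 44.4% of all genes, and into 16 higher and 12 lower under OCA, against 9.98% and 49.0%. Their median was 0.05 and 0.03 on that scale. Under vehicle centring ended the higher calls of Lamp1, Npc1, Ctsa, Tpp1, Glb1, Idua, Galc and Atp6v0d1, and called Lamp2, Mcoln1, Ctsc, Ctsf, Ctsh, Smpd1 and Tfeb lower beside Scarb2. Under OCA it ended the higher calls of Ctsz, Tpp1, Idua, Galc and Atp6v1h, and called Lamp2, Mcoln1, Ctsa, Ctsc, Ctsf, Gaa, Naglu, Smpd1 and Atp6ap1 lower beside Scarb2, Ctsh and Tfeb. With quantile normalization they were 23 higher and 2 lower under vehicle, against 13.4% and 15.2%, and 21 higher and 4 lower under OCA, against 14.9% and 17.1%. The called changes of the 41 genes kept their sign on both scales, except Tpp1 under OCA, which stood at −0.0048 after centring.

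**Figure D2:**
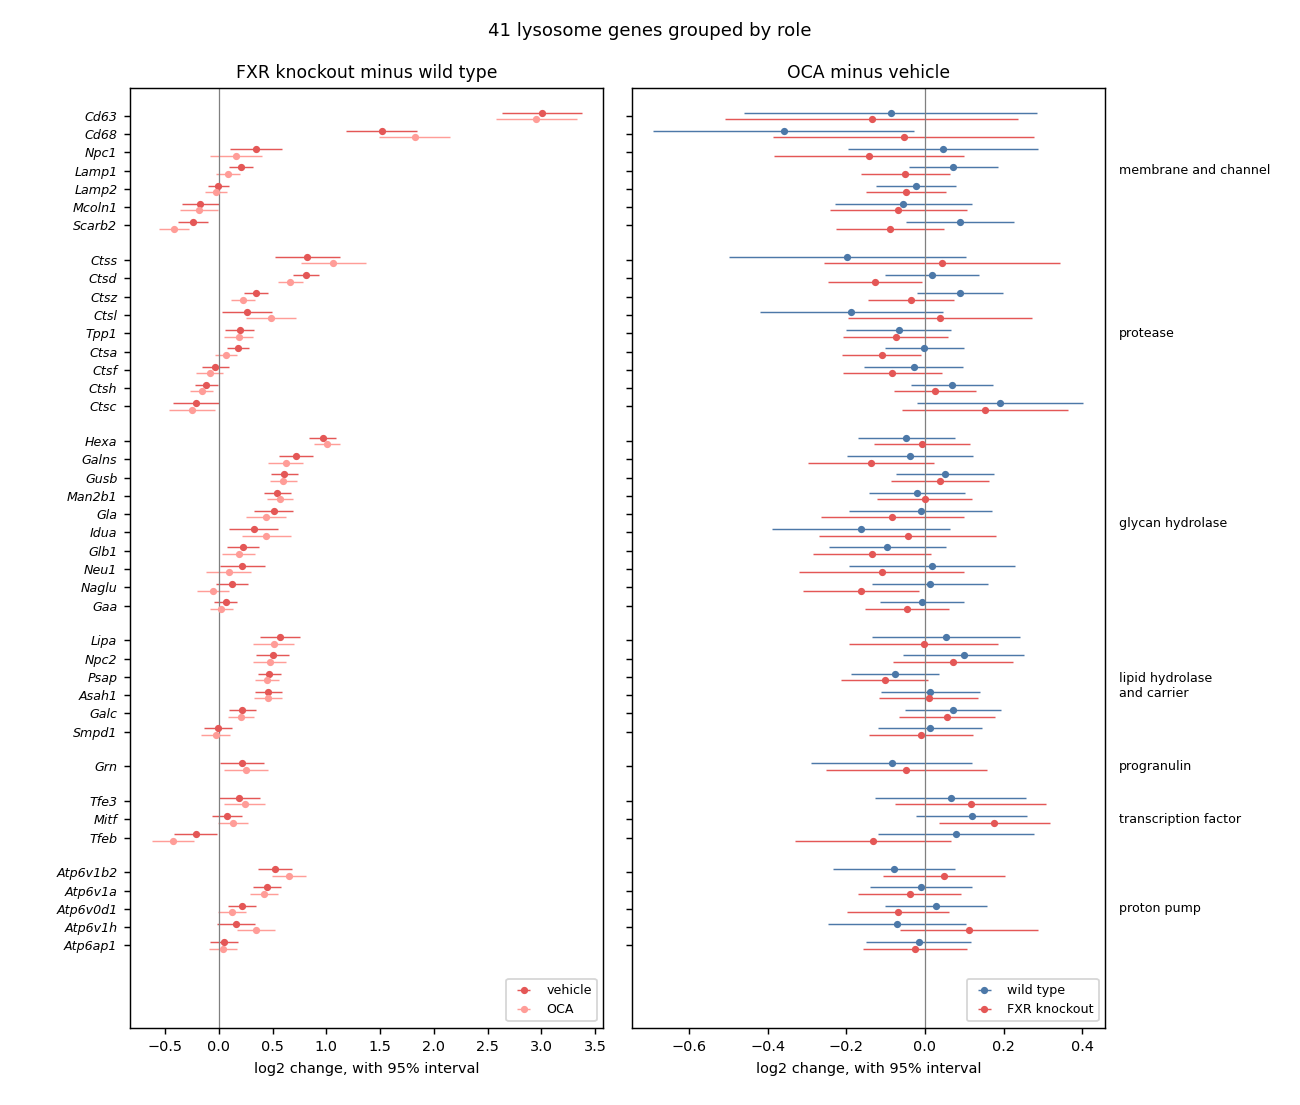
Log2 changes of the 41 lysosome genes with their 95% intervals, grouped by role, for FXR knockout minus wild type under vehicle and under OCA (left) and for OCA minus vehicle in each genotype (right). The horizontal scales of the panels differ: the genotype changes run from −0.43 to 3.00, while the OCA changes stay between −0.36 and 0.19.

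Among the 7 membrane proteins and channels, 4 were higher in knockout liver under vehicle (Cd63, Cd68, Npc1 and Lamp1) and Scarb2 was lower. After centring 2 were higher and 3 lower. For the counts by role given here and below, 15.4% of all genes were higher and 12.1% lower under vehicle, and 9.44% and 44.4% after centring. Under OCA the shares of all genes were 17.4% and 13.3%, and 9.98% and 49.0% after centring. Cd63 encodes a tetraspanin of late endosomes, lysosomes and exosomes. It read 3.45 to 4.94 (median 4.12) in wild-type mice on vehicle, 3.80 to 4.66 (3.95) in wild-type mice on OCA, 6.97 to 7.28 (7.18) in knockout mice on vehicle and 6.59 to 7.42 (7.04) in knockout mice on OCA. All 12 knockout arrays therefore lay above all 12 wild-type arrays. The change was 3.00 ± 0.18 (SE), or 8.01-fold, under vehicle (limma adjusted p = 2.01e-12) and 2.95 ± 0.18, or 7.75-fold, under OCA (adjusted p = 2.72e-12). The wild-type signal lay below the median of named genes in every wild-type array and may be background, so this fold is one of signal and no exact fold of RNA.

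Cd68, the macrosialin gene, encodes a heavily glycosylated lysosomal protein used as a macrophage marker. In wild-type mice it read 7.19 to 8.13 (median 7.41) on vehicle and 6.69 to 7.88 (7.15) on OCA, and in knockout mice 8.94 to 9.44 (9.03) on vehicle and 8.94 to 9.31 (8.98) on OCA. The genotypes did not overlap under either treatment, and the wild-type arrays were spread more widely than the knockout arrays. Cd68 was 2.86-fold higher in knockout under vehicle (1.52 ± 0.16, limma adjusted p = 5.89e-08) and 3.53-fold higher under OCA (1.82 ± 0.16, adjusted p = 2.31e-09).

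Scarb2 encodes LIMP2, the receptor that carries β-glucocerebrosidase to the lysosome, and went the other way. It read 9.46 to 9.91 (median 9.71) in wild-type mice on vehicle, 9.70 to 9.90 (9.82) on OCA, 9.44 to 9.62 (9.47) in knockout mice on vehicle and 9.28 to 9.48 (9.44) on OCA. The vehicle groups overlapped through 1 wild-type array at 9.46, whereas under OCA all knockout arrays lay below all wild-type arrays. Scarb2 fell by 0.24 ± 0.07 under vehicle (limma adjusted p = 0.00877) and by 0.42 ± 0.07 under OCA (adjusted p = 2.47e-05). The vehicle call ended within the arrays of number 7 (−0.24, adjusted p = 0.0511) and the OCA call with the number as a block (−0.41, adjusted p = 0.101).

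Npc1, the membrane protein that moves cholesterol out of the lysosome, was higher under vehicle by 0.35 ± 0.12 (limma adjusted p = 0.0267) and stood at 0.16 ± 0.12 under OCA (adjusted p = 0.328). The vehicle call of Npc1 ended in 7 of 27 alternative fits, among them number 7 alone (0.17, adjusted p = 0.159), and its change was 0.21 without wild-type vehicle replicate 6. Lamp1 was higher by 0.21 ± 0.06 under vehicle (adjusted p = 0.00528) and stood at 0.09 ± 0.06 under OCA (adjusted p = 0.258). Centring reduced the vehicle value of Lamp1 to 0.04 (adjusted p = 0.504), and number 7 alone gave 0.16 (adjusted p = 0.0900). Lamp2, the partner of Lamp1 in the membrane, differed by −0.00287 under vehicle and by −0.03 under OCA, with a 95% interval of −0.10 to 0.10 under vehicle. After centring Lamp2 was called lower, at −0.17 under vehicle (adjusted p = 0.0102) and −0.22 under OCA (adjusted p = 0.00136). These values lay near the median of all genes on that scale, −0.20 and −0.21, where 44.4% and 49.0% of all genes were called lower. Mcoln1, the calcium channel TRPML1, stood at −0.17 and −0.18 without passing the test.

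Of the 9 proteases measured, 5 were higher in knockout under vehicle and none was lower, against 15.4% and 12.1% of all genes. After centring 3 were higher and 3 lower, against 9.44% and 44.4% of all genes. Ctsd, the aspartic protease cathepsin D, read 10.63 to 10.91 (median 10.76) in wild-type mice on vehicle, 10.60 to 10.87 (10.78) on OCA, 11.49 to 11.63 (11.55) in knockout mice on vehicle and 11.35 to 11.53 (11.42) on OCA. The lowest knockout array exceeded the highest wild-type array under both treatments. The change was 0.81 ± 0.06, a factor of 1.76, under vehicle (limma adjusted p = 5.25e-11) and 0.67 ± 0.06, a factor of 1.59, under OCA (adjusted p = 1.68e-09).

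Ctss, cathepsin S, is the cysteine protease that trims the invariant chain in antigen-presenting cells. Wild-type arrays read 7.57 to 8.61 (median 8.09) on vehicle and 7.57 to 8.48 (7.80) on OCA, and knockout arrays 8.68 to 9.01 (8.92) and 8.76 to 9.21 (8.92). The gap between the genotypes was narrow beside the spread of the wild-type mice, but no array crossed it under vehicle or under OCA. Ctss was higher by 0.82 ± 0.15 under vehicle (limma adjusted p = 1e-04) and by 1.06 ± 0.15 under OCA (adjusted p = 2.66e-06).

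Ctsz, the carboxypeptidase cathepsin Z, was higher by 0.35 under vehicle (limma adjusted p = 1.42e-05) and by 0.22 under OCA (adjusted p = 0.00181). The OCA call of Ctsz ended with the array number as a block (0.05, adjusted p = 0.864) and after centring (0.03, adjusted p = 0.578). Tpp1, a tripeptidyl peptidase, was higher by 0.19 in both comparisons (adjusted p = 0.0264 and 0.0300), and the call ended in 8 of 27 alternatives under vehicle and in 10 of 26 under OCA. Ctsa, which protects β-galactosidase and neuraminidase in a complex, was higher by 0.18 ± 0.05 under vehicle (adjusted p = 0.00716) and stood at 0.07 under OCA (adjusted p = 0.316), and after centring its vehicle value was 0.01 (adjusted p = 0.857). Ctsl, cathepsin L, stood at 0.26 under vehicle (adjusted p = 0.0883) and was higher by 0.49 under OCA (adjusted p = 0.00150). The vehicle result of Ctsl turned on wild-type vehicle replicate 6, which read 11.91 where the other 5 mice read at most 11.1, and without it Ctsl was called at 0.42. Ctsh, an aminopeptidase, fell by 0.16 under OCA (adjusted p = 0.0180) and stood at −0.12 under vehicle (adjusted p = 0.0935). Ctsc, which activates granule serine proteases, at −0.21, and Ctsf, at −0.03, were not called under vehicle.

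Of the 10 glycan hydrolases, 7 were higher under vehicle, none was lower, and all 10 had a positive change. After centring 5 were higher and none lower under vehicle, against 9.44% and 44.4% of all genes. On that scale 5 were higher and 2 lower under OCA, against 9.98% and 49.0%. Hexa encodes the α subunit of β-hexosaminidase, which degrades GM2 ganglioside. It read 8.02 to 8.40 (median 8.26) in wild-type mice on vehicle, 8.10 to 8.34 (8.17) on OCA, 9.13 to 9.31 (9.20) in knockout mice on vehicle and 9.14 to 9.28 (9.18) on OCA. The knockout arrays lay close together and well clear of the wild-type arrays. Hexa was 1.95-fold higher under vehicle (0.97 ± 0.06, limma adjusted p = 3.22e-12) and 2.01-fold higher under OCA (1.01 ± 0.06, adjusted p = 1.45e-12).

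Gusb, the β-glucuronidase gene, read 7.54 to 7.85 (median 7.68) and 7.63 to 7.84 (7.75) in wild-type mice on vehicle and OCA, and 8.24 to 8.34 (8.30) and 8.19 to 8.46 (8.33) in knockout mice. Its change was 0.61 ± 0.06 under vehicle (limma adjusted p = 1.80e-08) and 0.60 ± 0.06 under OCA (adjusted p = 2.23e-08). For Galns, which removes sulfate from keratan sulfate, the ranges were 6.72 to 7.04 (6.94) and 6.72 to 7.12 (6.83) in wild-type and 7.50 to 7.79 (7.63) and 7.37 to 7.70 (7.43) in knockout mice. Both genes were separated without overlap under either treatment, and Galns was higher by 0.72 ± 0.08 (adjusted p = 7.35e-08) and 0.62 ± 0.08 (adjusted p = 6.76e-07).

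Man2b1, the α-mannosidase that trims N-glycans of degraded glycoproteins, read 9.26 to 9.52 (median 9.40) and 9.21 to 9.48 (9.40) in wild-type mice on vehicle and OCA, and 9.86 to 9.99 (9.94) and 9.77 to 10.09 (9.94) in knockout mice. The change was 0.55 ± 0.06 under vehicle (limma adjusted p = 7.27e-08) and 0.57 ± 0.06 under OCA (adjusted p = 3.70e-08). Gla, the α-galactosidase whose window holds TCACGTGA in 2 copies, read 6.09 to 6.46 (6.37) and 6.04 to 6.60 (6.32) in wild-type and 6.77 to 6.94 (6.83) and 6.57 to 6.86 (6.84) in knockout mice. Man2b1 separated the genotypes under both treatments, and Gla did so under vehicle but not under OCA, where 1 wild-type array at 6.60 passed the lowest knockout array. Gla was higher by 0.51 ± 0.09 (adjusted p = 6.83e-05) and 0.44 ± 0.09 (adjusted p = 3.46e-04).

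Idua, the α-iduronidase of heparan and dermatan sulfate breakdown, was higher by 0.32 under vehicle (limma adjusted p = 0.0286) and by 0.44 under OCA (adjusted p = 0.00266). Glb1, the β-galactosidase gene, was higher by 0.22 under vehicle (adjusted p = 0.0234) and stood at 0.18 under OCA (adjusted p = 0.0567). The vehicle calls of Idua and of Glb1 each ended in 7 of 27 alternatives. Neu1, the neuraminidase, at 0.22, Naglu at 0.12 and Gaa, the acid α-glucosidase that degrades lysosomal glycogen, at 0.06 were not called under vehicle. After centring, Naglu and Gaa were below 0.

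Of the 6 lipid hydrolases and lipid carriers, the same 5 were higher under vehicle and under OCA: Lipa, Npc2, Psap, Asah1 and Galc. After centring 4 were higher and 1 lower in each comparison. Of all genes 9.44% were then higher and 44.4% lower under vehicle, and 9.98% and 49.0% under OCA. Lipa encodes lysosomal acid lipase, which frees cholesterol and fatty acids from cholesteryl esters and triglycerides. It read 10.17 to 10.96 (median 10.91) in wild-type mice on vehicle, 10.73 to 10.96 (10.82) on OCA, 11.30 to 11.39 (11.35) in knockout mice on vehicle and 11.27 to 11.42 (11.33) on OCA. Wild-type vehicle replicate 6 held the value of 10.17, and the other 5 mice read at least 10.8. Lipa was higher by 0.57 ± 0.09 under vehicle (limma adjusted p = 2.94e-05), by 0.45 without that array, and by 0.51 ± 0.09 under OCA (adjusted p = 9.47e-05). With the number as a block the OCA value was 0.19 (adjusted p = 0.597).

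Npc2, the soluble protein that hands cholesterol to NPC1, read 7.32 to 7.68 (median 7.61) and 7.50 to 7.84 (7.64) in wild-type mice on vehicle and OCA, and 8.03 to 8.08 (8.05) and 7.94 to 8.36 (8.12) in knockout mice. Psap, the precursor of the saposins that help lipid hydrolases reach their substrates, read 10.98 to 11.14 (11.08) and 10.88 to 11.06 (11.01) in wild-type and 11.50 to 11.60 (11.53) and 11.37 to 11.64 (11.38) in knockout mice. In neither gene did the genotypes overlap under either treatment. Npc2 was higher by 0.50 ± 0.07 under vehicle (limma adjusted p = 9.65e-06) and 0.47 ± 0.07 under OCA (adjusted p = 1.81e-05), and Psap by 0.47 ± 0.05 (adjusted p = 1.96e-07) and 0.45 ± 0.05 (adjusted p = 4.22e-07).

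Asah1, the acid ceramidase gene, read 7.88 to 8.10 (median 7.97) and 7.83 to 8.23 (7.96) in wild-type mice on vehicle and OCA, and 8.35 to 8.49 (8.45) and 8.36 to 8.59 (8.42) in knockout mice. It was higher without overlap, by 0.46 ± 0.06 in both comparisons (limma adjusted p = 1.89e-06 under vehicle and 1.90e-06 under OCA). Galc, which cleaves galactosylceramide, was higher by 0.22 and 0.21 (adjusted p = 0.00642 and 0.00961), with overlap, and its vehicle value was 0.05 after centring (adjusted p = 0.466). Smpd1, the acid sphingomyelinase gene, stood at −0.01 under vehicle, with a 95% interval of −0.14 to 0.13, and at −0.03 under OCA. After centring Smpd1 was called lower, at −0.17 (adjusted p = 0.0316) and −0.22 (adjusted p = 0.00724), near the median of all genes on that scale, −0.20 and −0.21.

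Of the 5 genes of the proton pump on the list, 3 were higher under vehicle (Atp6v1a, Atp6v1b2 and Atp6v0d1) and 3 under OCA (Atp6v1a, Atp6v1b2 and Atp6v1h). After centring 2 were higher and none lower under vehicle, against 9.44% and 44.4% of all genes. On that scale 2 were higher and 1 lower under OCA, against 9.98% and 49.0%. Atp6v1a encodes the catalytic A subunit of the pump's ATP-hydrolysing part and read 8.19 to 8.39 (median 8.23) and 8.17 to 8.37 (8.26) in wild-type mice on vehicle and OCA, and 8.64 to 8.90 (8.70) and 8.48 to 8.87 (8.69) in knockout mice. Atp6v1b2, the B subunit, read 8.83 to 9.11 (8.95) and 8.68 to 9.09 (8.85) in wild-type and 9.34 to 9.65 (9.45) and 9.43 to 9.59 (9.57) in knockout mice. For both subunits every knockout array lay above every wild-type array of the same treatment. Atp6v1a was higher by 0.45 ± 0.06 (limma adjusted p = 4.41e-06) and 0.42 ± 0.06 (adjusted p = 9.83e-06), and Atp6v1b2 by 0.52 ± 0.08 (adjusted p = 5.96e-06) and 0.65 ± 0.08 (adjusted p = 2.00e-07).

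Atp6v0d1, a subunit of the membrane part, was higher by 0.22 under vehicle (limma adjusted p = 0.0102) and stood at 0.12 under OCA (adjusted p = 0.154). The vehicle value was 0.05 after centring (adjusted p = 0.488) and 0.15 within number 7 (adjusted p = 0.161). Atp6v1h, the regulatory H subunit, stood at 0.16 under vehicle (adjusted p = 0.169) and was higher by 0.34 under OCA (adjusted p = 0.00273). The OCA call of Atp6v1h ended in 3 of 26 alternatives, among them centring (0.15, adjusted p = 0.139). The accessory protein gene Atp6ap1 stood at 0.05 and 0.04.

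None of the 3 transcription factor genes was called under vehicle. Tfeb, the factor best known as an activator of lysosome genes, stood at −0.22 ± 0.10 under vehicle (limma adjusted p = 0.102) and fell by 0.43 ± 0.10 under OCA (adjusted p = 0.00119), where all knockout arrays (6.23 to 6.60) lay below all wild-type arrays (6.64 to 7.01). Without wild-type vehicle replicate 6, which held the lowest wild-type value of 6.30, the vehicle change of Tfeb was −0.32 and was called. Within number 7 it was −0.34 (adjusted p = 0.00594). Tfe3 stood at 0.19 and 0.24 (adjusted p = 0.137 and 0.0519) and Mitf at 0.08 and 0.13 (adjusted p = 0.446 and 0.147). Mitf was below 0 under vehicle and under OCA after centring and after quantile normalization. RNA levels do not show where these factors are in the cell, which is how TFEB and TFE3 are mainly controlled.

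Grn, which encodes progranulin, a secreted protein that is cut to granulins in the lysosome, stood at 0.22 ± 0.10 under vehicle (limma adjusted p = 0.104) and 0.26 ± 0.10 under OCA (adjusted p = 0.0525). Wild-type vehicle replicate 6 read 11.82 against at most 11.2 in the other 5 mice, and without that array Grn was called higher.

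**Figure D3:**
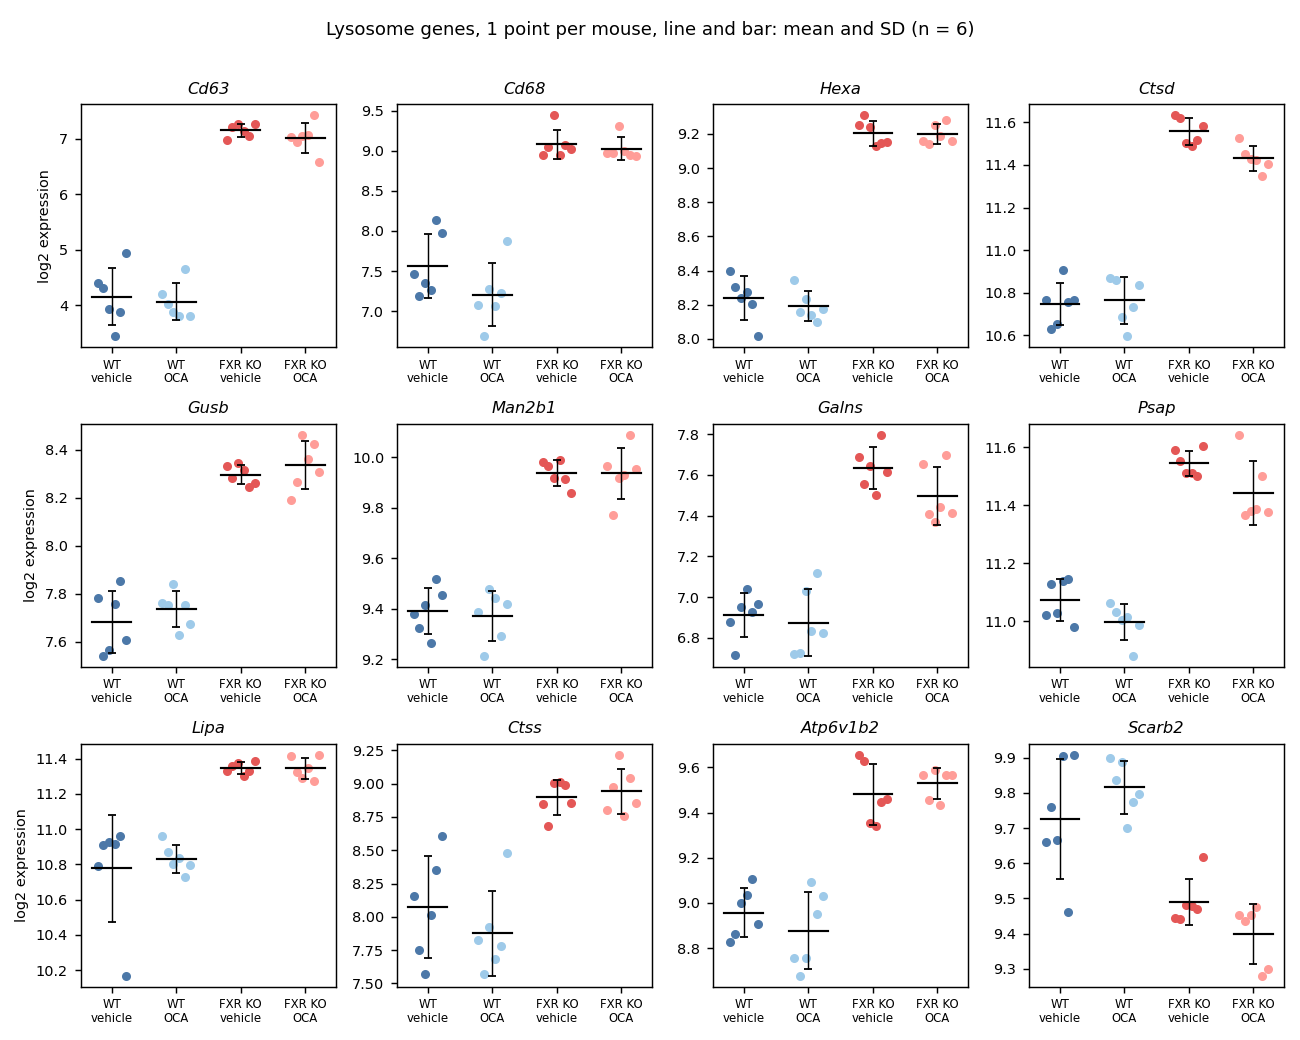
Log2 expression values of 12 lysosome genes in the 4 groups, 1 point per mouse, with the mean as a line and the SD as a bar (n = 6); each panel has its own scale, which does not start at 0. In Cd63, Cd68, Hexa, Ctsd, Gusb, Man2b1, Galns, Psap, Lipa, Ctss and Atp6v1b2 both knockout groups lie above both wild-type groups, and in Scarb2 they lie lower, with 1 low wild-type vehicle array at 9.46.

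Genes with an E-box in their window were found on both sides of the call. TCACGTGA was present in 5 of the 20 genes with a window that were higher in knockout under vehicle and in 1 of the 15 others, and CACGTG in 7 of 20 (35.0%) and 5 of 15 (33.3%). Ctsd with a change of 0.81 and Mcoln1 with −0.17 each held 1 TCACGTGA and a further CACGTG.

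A further 66 lysosome genes from a second list were measured, which covers other hydrolases, transporters, pump subunits, sorting and the nutrient sensors on the lysosome surface. Under vehicle 31 of the 66 were higher in knockout (47.0%, against 15.4% of all genes) and 3 were lower (4.55%, against 12.1%), with a median of 0.16. Under OCA 34 were higher (51.5%, against 17.4%) and 3 lower (4.55%, against 13.3%), with a median of 0.18. After centring the split was 14 higher and 13 lower under vehicle, against 9.44% and 44.4% of all genes, and 16 higher and 9 lower under OCA, against 9.98% and 49.0%. With the number as a block 15 were higher under OCA, against 7.44% of all genes. Of 11 further pump genes 9 were higher under vehicle and 7 under OCA and none was lower, but after centring 2 were higher in each comparison. Of 15 nutrient-sensing genes 6 were higher and none lower in each comparison, and after centring 3 were higher and 4 lower under vehicle and 3 higher and 2 lower under OCA.

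The further genes with the smallest adjusted p under vehicle included 2 Rag GTPases, which recruit the kinase mTORC1 to the lysosome when amino acids are present. Rragd read 4.32 to 4.92 in wild-type and 6.57 to 6.92 in knockout mice on vehicle, a change of 2.18 ± 0.13 (limma adjusted p = 1.18e-12), and was higher by 1.53 ± 0.13 under OCA (adjusted p = 9.29e-10). The wild-type signal of Rragd was below the median of named genes and may be background. Its change with OCA in knockout mice was −0.57 ± 0.13, which did not pass (adjusted p = 0.259). Rragc was higher by 0.55 ± 0.06 under vehicle (adjusted p = 2.39e-07). Atp6v0d2, a pump subunit isoform of osteoclasts and macrophages, read 4.66 to 7.68 in wild-type and 9.02 to 9.44 in knockout mice on vehicle and was higher by 3.14 ± 0.35 (adjusted p = 1.01e-07). The wild-type mice were widely spread in this gene, and none reached the knockout range.

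Atp6v0e, another membrane subunit of the pump, was higher by 0.89 ± 0.07 (limma adjusted p = 6.53e-10), and Igf2r, the mannose-6-phosphate receptor that brings hydrolases to the lysosome, by 0.83 ± 0.07 (adjusted p = 1.34e-09). Gm2a, the GM2 activator that works with β-hexosaminidase, was higher by 0.50 ± 0.05 (adjusted p = 1.15e-08), beside the higher Hexa. Cln3, a lysosomal membrane protein gene, was higher by 0.44 ± 0.06 (adjusted p = 9.15e-07). Arsa, the arylsulfatase that removes sulfate from sulfatide, went the other way: it read 7.93 to 8.47 in wild-type and 6.75 to 7.12 in knockout mice on vehicle and fell by 1.21 ± 0.10 (adjusted p = 1.13e-09), and by 1.31 ± 0.10 under OCA (adjusted p = 2.76e-10).

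OCA moved none of the 41 genes past the threshold. With limma 0 genes were called in wild-type liver, against 0.0691% of all genes, and 0 in knockout liver, against 0.0159%. At an unadjusted p below 0.05 there was 1 gene in wild-type liver, against 9.47% of all genes. In knockout liver there were 4 at that unadjusted threshold, Mitf, Naglu, Ctsa and Ctsd, against 5.14% of all genes. The changes in wild-type liver ran from −0.36 to 0.19 with a median of −0.01, and those in knockout liver from −0.16 to 0.18 with a median of −0.05. Cd68 had the largest change in wild-type liver, −0.36 ± 0.16 (adjusted p = 0.484), with a 95% interval of −0.69 to −0.03. For Hexa the interval in wild-type liver was −0.17 to 0.08, for Ctsd −0.10 to 0.14 and for Lipa −0.14 to 0.24. A missed threshold does not show that OCA left these genes as they were, and the intervals give the sizes that these 6 mice a group leave possible.

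The wild-type OCA comparison changed with the array number. With the number as a block, which sets the wild-type OCA arrays mainly against vehicle replicates 5 and 6, 1.79% of all genes were called higher and 1.76% lower. Among the lysosome genes Cd68 was then lower (−0.85, limma adjusted p = 0.0130), Idua was lower (−0.48, adjusted p = 0.0455) and Npc1 was higher (0.47, adjusted p = 0.0272). These calls rest on those vehicle arrays, and replicate 6 is the array that stood apart in 532 genes. Replicates 5 and 6 read 8.13 and 7.98 for Cd68, 7.08 and 7.11 for Idua and 10.06 and 9.48 for Npc1. The other wild-type vehicle arrays read 7.19 to 7.46, 6.52 to 6.81 and 10.27 to 10.56. Without replicate 6, replicate 5 alone would stand for vehicle. Within number 5 alone none of the 41 was called.

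The difference between the OCA effects in knockout and in wild-type liver was tested directly. With limma it was called in 0 of the 41 genes and in 0% of all genes. At an unadjusted p below 0.05 it was 0 of the 41, against 6.06% of all genes. These differences ran from −0.21 for Tfeb to 0.31 for Cd68, and each had a 95% interval that held 0. With the number as a block 34 genes were called in all, none of them a lysosome gene.

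The array number also bears on the genotype results. Number 7 holds 4 wild-type and 4 knockout vehicle arrays, and within it 21 of the 41 genes were higher and 2 lower in knockout, against 13.9% and 10.1% of all genes. Of the 25 vehicle calls, 19 were kept there and Lamp1, Scarb2, Npc1, Ctsa, Tpp1 and Atp6v0d1 were lost, while Mcoln1, Ctsl, Grn and Tfeb were gained. With the number as a block 22 were higher and 3 lower under vehicle, against 13.3% and 9.46%. Under OCA, where the genotypes carry different numbers and can be told apart from the number only through the vehicle arrays, the block left 13 higher and 2 lower, against 7.44% and 4.96%. The calls lost there were Scarb2, Ctsh, Ctsz, Tpp1, Gla, Lipa, Npc2, Psap, Atp6v1a and Atp6v1b2, and Mcoln1 was gained. Without wild-type vehicle replicate 6 all 25 vehicle calls were kept and Ctsl, Grn, Tfeb and Atp6v1h were added, against 15.8% of all genes higher and 13.2% lower.

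In 16 genes the vehicle call was kept in each of the 27 alternative fits run: Cd63, Cd68, Hexa, Gusb, Man2b1, Galns, Gla, Ctsd, Ctss, Ctsz, Lipa, Psap, Asah1, Npc2, Atp6v1a and Atp6v1b2. Under OCA the call was kept in each of the 26 alternative fits run for Cd63, Cd68, Hexa, Gusb, Man2b1, Ctsd, Ctss, Ctsl, Asah1 and Tfeb. Calls kept in every fit were not counted over all genes, so these names describe single genes and not the lysosome genes as a set. The SD within groups had a median of 0.11 over the 41 lysosome genes, against 0.17 over all genes, and it was largest for Cd63 (0.34), Cd68 (0.30) and Ctss (0.27).

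Macrophage genes were higher in knockout liver as well. Of 12 Kupffer cell and macrophage markers 7 were higher in knockout under vehicle (Clec4f, Vsig4, Cd5l, Csf1r, C1qa, C1qb and C1qc), 1, Cd163, was lower, and the median change was 0.61. Of all genes 15.4% were higher and 12.1% lower. After centring 6 of these markers were higher and 1 lower, with a median of 0.44, against 9.44% and 44.4% of all genes. The log2 of their summed signal was 11.38 to 12.33 in wild-type mice on vehicle, 11.14 to 12.38 on OCA, 12.32 to 12.50 in knockout mice on vehicle and 12.26 to 13.07 on OCA. All 8 measured markers of lipid-associated macrophages, Gpnmb, Trem2, Cd9, Lpl, Itgax, Mmp12, Clec7a and Lgals3, were higher under vehicle, with a median of 1.55. After centring all 8 were still higher, with a median of 1.38. Their summed signal was 8.47 to 9.13 and 8.69 to 8.87 in wild-type and 10.33 to 10.77 and 10.26 to 10.62 in knockout mice. This scale has no 0, so no marker could be read as absent. The part of macrophages in the lysosome gene result was not tested, and in whole liver more cells of a type and more RNA per cell cannot be told apart.

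Replicate 6 of each wild-type group was high on the Kupffer list and was singled out after its values were seen. Wild-type vehicle replicate 6 had a mean of 8.52 and a summed signal of 12.33 on that list, against 8.15 to 8.40 and 12.32 to 12.50 in the knockout vehicle arrays, so it lay above them on the mean and within their range on the sum. Wild-type OCA replicate 6 had a mean of 8.58 on the Kupffer list. Knockout OCA replicate 3 read 9.09 and the other knockout OCA arrays 8.11 to 8.28, so the wild-type array lay between them. On the lipid-associated macrophage list both wild-type arrays were below the knockout arrays, at 5.49 (vehicle) and 5.27 (OCA) against 7.10 to 7.48 and 6.98 to 7.35. On the monocyte and neutrophil markers wild-type vehicle replicate 6 had a mean of 5.19, against 3.66 to 3.71 in the other wild-type vehicle arrays. Of the 24 genes higher in knockout under vehicle, all but Idua and Galc were below the lowest knockout vehicle array in wild-type vehicle replicate 6, which is also the array that stood apart in 532 genes. That array was 1 of the 6 wild-type arrays in the comparison that called these genes. In 19 of the 41 lysosome genes every knockout vehicle array lay above every wild-type one, against 9.40% of all genes. The count was therefore largely fixed by the choice of genes, and what macrophages contributed was not tested. In wild-type OCA replicate 6, 19 of the 24 were below the lowest knockout OCA array, and Lamp1, Ctsa, Tpp1, Gla and Atp6v0d1 were not. In 16 of the 41 lysosome genes every knockout OCA array lay above every wild-type OCA array, replicate 6 included, against 10.9% of all genes. The count for this array was therefore largely fixed as well. The values of replicate 6 are those of 1 array in each group and no test.

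**Figure D4:**
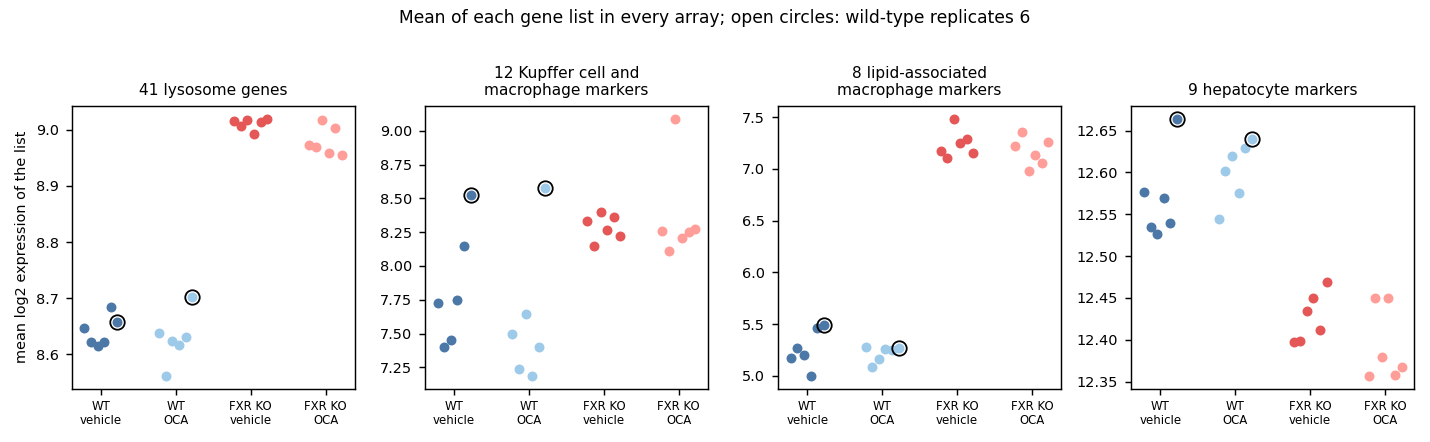
Mean log2 expression of the 41 lysosome genes, 12 Kupffer cell and macrophage markers, 8 lipid-associated macrophage markers and 9 hepatocyte markers in every array, with 1 point per mouse, groups on the horizontal axis and replicate 6 of each wild-type group circled. The lysosome mean is 8.56 to 8.70 in wild-type and 8.96 to 9.02 in knockout arrays, and the circled arrays are the highest wild-type arrays on the Kupffer list and read 8.66 and 8.70 on the lysosome list, where the second is the highest wild-type array. On the lipid-associated macrophage list the circled arrays read 5.49 and 5.27, against 6.98 to 7.48 in knockout arrays.

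Lists of other liver cells were counted in the same way under vehicle, where 15.4% of all genes were higher and 12.1% lower. Stellate cell markers were higher in 8 of 9 genes (median 1.02), as they were after centring. Cholangiocyte markers were higher in 2 of 7 genes and monocyte and neutrophil markers in 1 of 6, with none lower. Lymphocyte markers were called in 0 of 7 genes, sinusoidal endothelial markers were lower in 2 of 9, and hepatocyte markers were lower in 2 of 9, Cps1 and Hnf4a. After centring, where 44.4% of all genes were lower, these became 4 of 7, 5 of 9 and 8 of 9 lower. Under OCA 17.4% of all genes were higher and 13.3% lower. There hepatocyte markers were lower in 7 of 9 genes. Sinusoidal endothelial markers were higher in 2 of 9 and lower in none, with a median of 0.16, against −0.13 under vehicle. Kupffer cell and macrophage markers were higher in 9 of 12 and lower in 1 (median 0.92). Stellate cell markers were higher in 9 of 9, cholangiocyte markers in 1 of 7, monocyte and neutrophil markers in 1 of 6 and lymphocyte markers in 0 of 7. Whether any of these cell types contributed to the change of the lysosome genes was not tested.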

How the data were processed

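Log2 expression values of 24 whole-transcript arrays were used as the authors deposited them. Per the submitters' processing notes they were made by RMA. No source used here gives its version or the base of the logarithm, and values of 0.87 to 13.6 were read as log2. Precision is limited by the number of arrays. Of 35556 probe sets, 21218 had 1 gene symbol in the platform table and were used, 1881 had several and 12457 were not listed. Symbols were updated by gene number for 21185 of them, and the probe set with the highest mean was kept per gene (18820 genes). No detection call was used.

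One mean per group was fitted over all arrays in limma 3.58.1 (R 4.3.3), which left 20 degrees of freedom beside 4.46 from the prior, and Benjamini-Hochberg adjustment of the p-values covered 18820 genes. The fit was tested on simulated data with independent normal noise. They held no effect of array number, no outlying array and no shift of array medians, so this test does not bear on those features. Promoters were searched and figures drawn with Python 3.11.15 and matplotlib 3.10.9.

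The lysosome genes, the other lists and the tests were chosen with earlier results of these data known. Group ranges were given in full for up to 16 genes, the 12 with the smallest adjusted p for knockout under vehicle and then those called in another comparison by adjusted p, and up to 8 further lysosome genes were named. Alternatives covered centring, quantile normalization, a filter at a mean of 5, the variance model, array weights, the samples in the fit, array code number and letter, the replicate number, the probe set rule, and leaving out single arrays.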

Additional observations from a re-analysis of the deposited data

Results flagged for a closer look

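A single array lay far from the other 5 of its group, by Dixon's test, in 11 of 164 gene and group combinations, where chance gives about 8.2. Wild-type vehicle replicate 6 gave 4 of them: Lamp1 at 10.8 (the others 11.0 to 11.1), Lipa at 10.2 (10.8 to 11.0), Ctsl at 11.9 (10.8 to 11.1) and Grn at 11.8 (10.9 to 11.2). Cd68 was high in FXRKO vehicle replicate 3, at 9.44 (8.94 to 9.08), and in FXRKO OCA replicate 3, at 9.31 (8.94 to 9.00). Scarb2 was high in FXRKO vehicle replicate 6, at 9.62 (9.44 to 9.48), and Atp6v1a in FXRKO vehicle replicate 1, at 8.90 (8.64 to 8.73). Smpd1 was high in FXRKO OCA replicate 2, at 8.68 (8.53 to 8.56). Among the wild-type OCA mice Lamp2 was low in replicate 1, at 11.7 (11.8 in the others), and Ctsa in replicate 5, at 10.1 (10.2 to 10.3).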

How the results depend on the processing

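Under vehicle the count of lysosome genes higher in knockout, 24, fell to 16 after centring, which is the edge of a range of 1.5 times. It stayed within that range in the other alternatives run and was 22 to 27 when single arrays were left out. Under OCA it was 16 after centring and 20 to 23 without single arrays. The count lower, 1 under vehicle, was 8 after centring each array on its median, 3 with array weights and with the number in the array names as a block, with or without wild-type vehicle replicate 6, and 2 with quantile normalization, the filter at a mean of 5, trend with robust eBayes, the code letter as a block, number 7 alone, and without both wild-type arrays 6. Leaving out single arrays gave 1 to 2. Under OCA the count lower, 3, was 12 after centring and 2 to 4 without single arrays, and the count higher, 21, was 13 with the number as a block, with or without wild-type vehicle replicate 6. The fits without the wild-type arrays 6, and the block fit that leaves out wild-type vehicle replicate 6, were chosen after seeing the data. OCA in wild-type liver gave 1 gene higher and 2 lower with the number as a block and 0 in the other alternatives, and the counts for OCA in knockout liver and for the difference of OCA effects were 0 in each. Tpp1 under OCA reversed after centring (−0.0048). Cd68 with OCA in knockout liver, −0.05 and not called, was 0.034 with the number as a block and within number 9, and −0.11 to 0.018 without single arrays, positive without FXRKO vehicle replicate 3. The cause of these shifts was not tested. Replicate numbers did not pair the mice: same-numbered arrays of different groups correlated at −0.0824 to 0.17 in their deviations, above 0.1 in 2 of 36 pairs, and 2 arrays correlated best with their own number. With the replicate block 25 genes were called under vehicle, the same genes as without it, and 26 under OCA, the same 24 with Grn and Tfe3 added. Low signals, such as that of Cd63 in wild-type liver, may be background.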
